A study of Mus musculus with 6 samples.

Results

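HCFC1 occupancy was examined at the genes of the translation initiation factors, taken as every gene whose name in the authors' peak lists begins with Eif and a digit between 1 and 6. Peaks carried 50 such names, of 16199 gene names in the 3 lists together. The ERRα siRNA list named 45 of them on 79 of its 21881 peaks, the HCFC1 siRNA list named 40 on 47 of 12610 peaks, and the control siRNA list named 44 on 101 of 36147 peaks. RefSeq lists 56 protein-coding mouse symbols of this form, and shares below are of these 56. Host cell factor C1 (HCFC1) is a coregulator tethered to promoters by other proteins, among them ZFP143 and THAP11. ERRα, the product of Esrra, is a nuclear receptor that drives genes of energy metabolism.

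The cells were Hepa1-6, an established mouse hepatoma line labelled as wild type, and each condition was 1 HCFC1 ChIP-seq library. Cells received siRNA against ERRα, siRNA against HCFC1 or a scrambled control pool, at 100 nM and again after 48 h, and were taken at 96 h. A note deposited with the lists states that 2 independent ChIPs were pooled for each. The knockdowns were transient and their efficiency was not analysed here. Because there was 1 list per condition and read depth is unknown, no test between conditions was made, and the exact (Clopper-Pearson) 95% intervals given with shares cover counting error only.

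Initiation begins when eIF2, carrying GTP and the initiator tRNA, joins the small ribosomal subunit with eIF1, eIF1A, eIF3 and eIF5. The eIF4 proteins bind the mRNA cap, unwind the leader and recruit this complex, and eIF5B joins the large subunit, which eIF6 otherwise keeps apart. eIF2B reloads eIF2 with GTP, and the kinases encoded by Eif2ak1 to Eif2ak4 block that step under stress by phosphorylating the alpha subunit of eIF2.

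The promoters are shown first because HCFC1 has no DNA-binding domain of its own and reaches DNA through proteins that read short motifs. RefSeq windows (GRCm38.p6) of 300 bases, 250 before and 50 after each start, were found for 44 of the 56 symbols, some with several starts. Both strands were searched, and a gene counted when the window of any of its starts held the motif. The core of the ZFP143 and THAP11 motif, ACTACAA, was found at 5 of 44 Eif genes (11.4%), at 5.4% of 8745 protein-coding genes with a control peak at a start, and at 4.19% of all 17492 protein-coding genes. The 5 were Eif2s2, Eif3c, Eif2ak3, Eif2b4 and Eif4a3l1. A control HCFC1 peak lay at the first 4 of these, and no peak of any list at Eif4a3l1. The sequences upstream of Eif2s2, Eif3c and Eif2ak3 are printed 5′ to 3′ along the gene, ending at the annotated gene, with ACTACAA or its reverse TTGTAGT in capitals, and in Eif3c also the ETS motif CCGGAAG in its reverse form CTTCCGG.
Eif2s2 (chr2:154892907-154893156, minus strand): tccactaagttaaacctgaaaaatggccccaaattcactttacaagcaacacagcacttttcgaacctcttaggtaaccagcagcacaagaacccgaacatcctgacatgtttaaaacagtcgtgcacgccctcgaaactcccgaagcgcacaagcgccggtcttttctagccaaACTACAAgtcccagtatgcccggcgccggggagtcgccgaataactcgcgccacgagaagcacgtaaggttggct
Eif3c (chr7:126566367-126566616, minus strand): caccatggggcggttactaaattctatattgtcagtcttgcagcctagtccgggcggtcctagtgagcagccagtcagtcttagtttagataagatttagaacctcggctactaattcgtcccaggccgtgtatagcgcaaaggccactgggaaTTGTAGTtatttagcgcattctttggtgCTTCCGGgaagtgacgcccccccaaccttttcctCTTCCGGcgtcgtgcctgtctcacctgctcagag
Eif2ak3 (chr6:70844265-70844483, plus strand): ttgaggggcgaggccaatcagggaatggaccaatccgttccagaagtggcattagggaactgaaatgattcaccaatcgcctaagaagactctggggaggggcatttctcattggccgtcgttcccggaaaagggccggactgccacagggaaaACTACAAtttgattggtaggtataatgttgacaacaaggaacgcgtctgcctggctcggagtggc
The first base of the core lay at -75 in Eif2s2, -96 in Eif3c and -96 in Eif2ak3, counted from the RefSeq start. In Eif2b4 it lay at 8, inside the transcript.

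Other motifs were counted in the same way as a description. The ETS motif CCGGAAG was found at 16 of 44 Eif genes (36.4%), against 22% of genes with a control peak and 12.9% of all genes. The E-box CACGTG was found at 10 (22.7%), against 12.4% and 8.91%. The YY1 core AAGATGG was found at 6 (13.6%), against 8.72% and 7.18%. The NRF1 motif GCATGCGC was found at 3 (6.82%), against 6.48% and 3.94%. The GC box GGGCGG was found at 33 (75%), against 72.1% and 49.2%, and CCAAT at 16 (36.4%), against 43% and 42.3%. The ERR half-site AAGGTCA was found at 0 of 44, against 3.64% and 4.73%. No interval was computed for the motif shares, so this 0 is not read as a lack of ERR sites. CCGGAAG can share its last letters with AAGATGG or AAGGTCA. Taking the window of highest GC content per gene, the median was 62.2% for Eif genes, against 63% for genes with a control peak and 57.3% for all genes.

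A peak named for the gene and centred within 1000 bp of a start, called proximal here, was present for 44 of 56 genes after ERRα siRNA (78.6%, interval 65.6 to 88.4), for 39 after HCFC1 siRNA (69.6%, 55.9 to 81.2) and for 43 with control siRNA (76.8%, 63.6 to 87). Over all 21900 protein-coding genes the shares were 45.1% after ERRα siRNA, 29.3% after HCFC1 siRNA and 44.2% with control siRNA. By the authors' promoter annotation in place of distance, the Eif shares were 35.7% after ERRα siRNA, 33.9% after HCFC1 siRNA and 48.2% with control siRNA, against 22.3%, 15.3% and 23.5% of all protein-coding genes. Under either rule each Eif share stood above the share of all genes in its own list.

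The proximal peaks named for these genes scored above the median gene in the ERRα siRNA and control lists, and near the middle of the HCFC1 siRNA list. Peaks named for another gene were left out of these medians in every list. After HCFC1 siRNA such peaks lay at Eif1ad (1469), Eif5b (606), Eif2b4 (561), Eif1a (81), Eif2b1 (77) and Eif3i (77). Each scored above the HCFC1 siRNA median of the named Eif peaks. After ERRα siRNA they lay at Eif1ad (10293), Eif5b (3021), Eif2a (1567), Eif3i (614), Eif2s1 (554) and Eif3k (202). All but the last scored above the ERRα siRNA median of the named Eif peaks. With control siRNA they lay at Eif1ad (6045), Eif2b1 (1071), Eif2s1 (262) and Eif3k (176), on both sides of the control median. The named medians therefore understate the group after both knockdowns, not in the HCFC1 siRNA list alone. The score is the authors' own, a whole number of unstated scale, and is compared only within a list. In the ERRα siRNA list the median best proximal score per gene was 470 for Eif genes and 178 for all genes. In the HCFC1 siRNA list it was 54 for Eif genes and 49 for all genes. In the control list it was 277 for Eif genes and 102 for all genes. The median Eif gene stood at percentile 75.4 of the genes in the ERRα siRNA list, 54.8 in the HCFC1 siRNA list and 77.1 in the control list. Lists of different length give no change between conditions from such ranks.

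**Figure D1:**
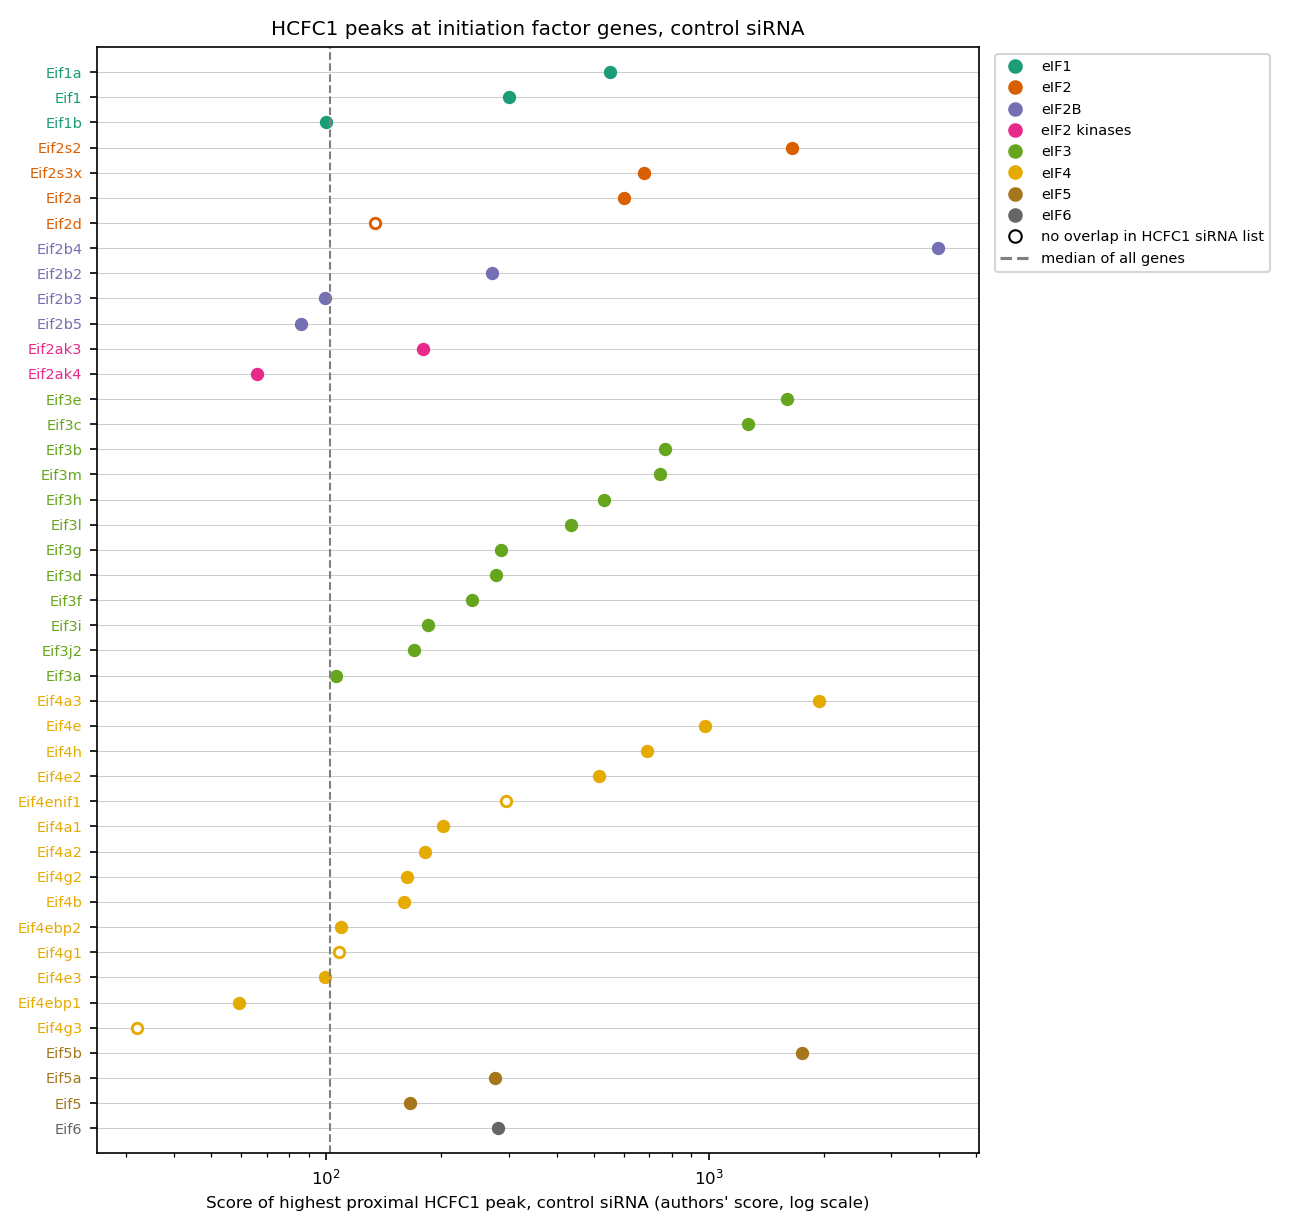
Authors' score of the highest HCFC1 peak within 1000 bp of a start for each of the 43 Eif genes with one in the control siRNA list (log axis), by factor group, with the median of all genes (102) as a dashed line. Open circles are the 4 genes whose peak had no overlapping peak in the HCFC1 siRNA list; Eif2b4 lies highest at 3987 and Eif4g3 lowest at 32.

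Among the factors that deliver the initiator tRNA, 4 of the 6 genes grouped as eIF2 had a control peak, with scores of 134 to 1655 and a median of 638. Eif2s2, the beta subunit, scored 4050 after ERRα siRNA, 533 after HCFC1 siRNA and 1655 with control siRNA, where the peak was at chr2:154891985-154893658. It stood at percentile 97.5, 94.4 and 95.7 of those lists in the same order. Eif2s3x, the X-linked gamma subunit, scored 853 after ERRα siRNA, 85 after HCFC1 siRNA and 677 with control siRNA. Eif2a, a separate initiator-tRNA-binding factor and not the alpha subunit, scored 141 after HCFC1 siRNA and 599 with control siRNA, and after ERRα siRNA a peak named for its neighbour covered it. The alpha subunit gene Eif2s1 had a peak under its own name only after HCFC1 siRNA, and is taken up with the shared starts. Eif2s3y, the Y-linked gamma subunit, had no peak in any list.

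The exchange factor eIF2B held the highest control peak under an Eif name. Eif2b4, its delta subunit, scored 6573 after ERRα siRNA and 3987 with control siRNA, at chr5:31191946-31194274, rank 87 of the 10302 genes with a proximal control peak. The HCFC1 siRNA peak over it scored 561 and carried the name of the neighbouring gene Snx17. The beta, gamma and epsilon subunits scored far lower in the control list: Eif2b2 had 271, Eif2b3 had 99 and Eif2b5 had 86. The 4 control scores under eIF2B gene names thus ran from 86 to 3987, around a median of 185. They leave out the alpha subunit gene Eif2b1, because the control peak at its start (1071) was named Gtf2h3.

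The 2 eIF2 kinases with a proximal control peak scored 66 and 179, on either side of the median of all genes. Eif2ak3 (PERK, the kinase of endoplasmic reticulum stress) scored 253 after ERRα siRNA, 25 after HCFC1 siRNA and 179 with control siRNA. Eif2ak4 (GCN2, the kinase of amino acid shortage) scored 90 after ERRα siRNA, 40 after HCFC1 siRNA and 66 with control siRNA, below the control median of all genes. Eif2ak2 (PKR, the kinase activated by double-stranded RNA) scored 59 after ERRα siRNA and 26 after HCFC1 siRNA, and no control peak overlapped either of these. Eif2ak1 (HRI, the haem-regulated kinase) had no proximal peak under the lists' own distances. Its control peak of score 302 at chr5:143817282-143818766 was annotated as intergenic, -53838 bp from a start, yet it spans the RefSeq start of Eif2ak1 at position 143817792. Both knockdown lists end within 20 kb of a start, so the same site could not have been listed there under that annotation.

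eIF3, the large scaffold complex on the small subunit, was covered at most of its genes. Of its 14 symbols 12 had a control peak, with scores of 106 to 1604 and a median of 361.5, all above the median of all genes. Eif3e scored 1651 after ERRα siRNA, 218 after HCFC1 siRNA and 1604 with control siRNA (chr15:43282098-43283299). Eif3c scored 2791 after ERRα siRNA, 348 after HCFC1 siRNA and 1267 with control siRNA (chr7:126565368-126567065). Eif3b scored 1396 after ERRα siRNA, 125 after HCFC1 siRNA and 768 with control siRNA (chr5:140418149-140420174). Eif3m scored 1776 after ERRα siRNA, 171 after HCFC1 siRNA and 746 with control siRNA (chr2:105016494-105017535). These 4 subunits stood above percentile 80 in every list. Peaks named Eif3j2 (665 after ERRα siRNA, 78 after HCFC1 siRNA and 170 with control siRNA) lie on chromosome 2 at the RefSeq start of Eif3j1, so the name in the lists and the RefSeq symbol differ, and Eif3j1 itself was named in no list.

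The eIF4 group, which binds the cap and unwinds the leader, spanned a wide range: 14 of its 17 genes had control peaks, scoring 32 to 1946 around a median of 172. Eif4a3, a helicase of the exon junction complex, scored 3555 after ERRα siRNA, 111 after HCFC1 siRNA and 1946 with control siRNA (chr11:119299570-119300969). Eif4e, the cap-binding protein, scored 2044 after ERRα siRNA, 54 after HCFC1 siRNA and 980 with control siRNA (chr3:138526127-138528233). Eif4h, a cofactor of the helicase eIF4A, scored 865 after ERRα siRNA, 52 after HCFC1 siRNA and 689 with control siRNA (chr5:134638411-134639876). Within the HCFC1 siRNA list Eif4a3 stood at percentile 79.4, Eif4e at 54.8 and Eif4h at 52.4, and within the control list at 96.5, 91.8 and 88.8. The helicases of the initiation step itself, Eif4a1 and Eif4a2, had control scores of 202 and 181. No list held a peak named for Eif4e1b, Eif4ebp3 or Eif4a3l1. No peak of any name lay at the start of Eif4a3l1 either, and the other genes were not checked by position.

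For the start-selection factors, Eif1a scored 1183 after ERRα siRNA and 551 with control siRNA, and Eif1 scored 361 after ERRα siRNA, 80 after HCFC1 siRNA and 300 with control siRNA. The HCFC1 siRNA peak over the Eif1a control peak scored 81 and carried the name Tmed7. At the subunit-joining step, Eif5b scored 1756 with control siRNA (chr1:37996626-37999311). The peaks over it scored 3021 after ERRα siRNA and 606 after HCFC1 siRNA, and both were named for its neighbour Txndc9. Eif5, which stimulates GTP hydrolysis by eIF2, scored 706 after ERRα siRNA, 62 after HCFC1 siRNA and 166 with control siRNA. Eif5a, a factor now known mainly for elongation, scored 453 after ERRα siRNA, 88 after HCFC1 siRNA and 277 with control siRNA. Eif6 scored 581 after ERRα siRNA, 38 after HCFC1 siRNA and 281 with control siRNA. The score ranges of the eIF1, eIF2, eIF2B, eIF3, eIF4 and eIF5 groups overlapped in the control list. The range of the eIF2 kinases, 66 to 179, overlapped each of these, and the single eIF6 score lay inside all of them.

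All 43 control proximal peaks of Eif genes were overlapped by at least 1 bp in the ERRα siRNA list (100%, interval 91.8 to 100). Over all genes 90.6% of 10302 were. In the HCFC1 siRNA list 39 of 43 were overlapped (90.7%, 77.9 to 97.4), against 58.7% over all genes. With a reciprocal overlap of at least 50%, 81.4% of Eif peaks were overlapped after ERRα siRNA and 53.5% after HCFC1 siRNA, against 69.7% and 33% over all genes. With peak centres within 200 bp, 62.8% were after ERRα siRNA and 58.1% after HCFC1 siRNA, against 56.4% and 36.4%. Members of every factor group were among those overlapped: 3 of 4 for eIF2, 11 of 14 for eIF4, and every control peak of the eIF1, eIF2B, eIF2 kinase, eIF3, eIF5 and eIF6 groups, which numbered 3, 4, 2, 12, 3 and 1.

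The shares were read beside genes of like control score, because 37 of 43 Eif genes (86%) scored at least 100 in the control list, against 51% of all genes. At scores of 500 or more, 15 of 15 Eif peaks were overlapped after HCFC1 siRNA, against 99% of all genes. From 200 to below 500, 9 of 10 were (90%), against 87.5%. From 100 to below 200, 10 of 12 were (83.3%, 51.6 to 97.9), against 67.9%. Below 100, 5 of 6 were (83.3%, 35.9 to 99.6), against 33.9%. That range starts at 13 and its 6 Eif peaks scored 32 to 99, so scores there are matched only loosely, for either knockdown. From a score of 100 upwards the share of all genes thus lay inside the Eif interval, and below 100 it lay just under an interval that rests on 6 genes. After ERRα siRNA every Eif peak of every score range was overlapped, against 81% of all genes below 100 and 99.7% from 100 to below 200.

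**Figure D2:**
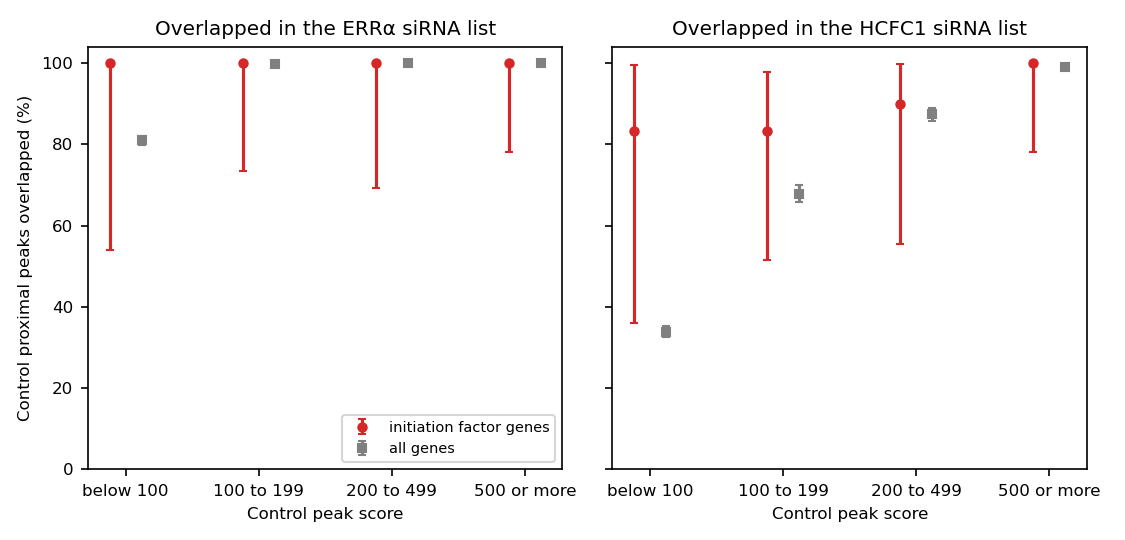
Share of control proximal peaks (%) overlapped in the ERRα siRNA list (left) and the HCFC1 siRNA list (right), by control score range, for initiation factor genes (red circles) and all genes (grey squares), with exact 95% intervals. In the HCFC1 siRNA list the share of all genes runs from 33.9% below a score of 100 to 99% at 500 or more, and the Eif shares lie between 83.3% and 100%.

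The 4 control peaks without an overlapping peak after HCFC1 siRNA were those of Eif2d, Eif4enif1, Eif4g1 and Eif4g3. Eif4enif1, the eIF4E transporter 4E-T, scored 363 after ERRα siRNA and 296 with control siRNA (chr11:3202280-3203340). Eif4g1, the main scaffold between cap and ribosome, scored 264 after ERRα siRNA and 108 with control siRNA (chr16:20672535-20673686). Its paralog Eif4g3 scored 88 after ERRα siRNA and 32 with control siRNA (chr4:137993224-137993777). The third paralog, Eif4g2, was overlapped, with scores of 263 after ERRα siRNA, 28 after HCFC1 siRNA and 163 with control siRNA. Eif2d, a factor that can place tRNA without eIF2, scored 141 after ERRα siRNA and 134 with control siRNA (chr1:131152977-131153568). After HCFC1 siRNA it had a peak of score 14 centred 920 bp downstream of the start, which did not reach the control peak.

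A few members had a proximal peak after a knockdown and none overlapping with control siRNA. No share of all genes with such peaks stands beside them, so nothing is read from their number. Eif1ax, the X-linked gene of eIF1A, scored 96 after ERRα siRNA (chrX:159372246-159372648). Eif5a2, a paralog of Eif5a, scored 42 after ERRα siRNA (chr3:28780878-28781635). Both were without a peak after HCFC1 siRNA. Eif2ak2 was listed after ERRα siRNA (chr17:78882275-78883023) and after HCFC1 siRNA (chr17:78882533-78882846). All 3 stood low in the ERRα siRNA list, Eif1ax at percentile 31.1, Eif5a2 at 11.2 and Eif2ak2 at 18.4.

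Peak widths are given for Eif genes beside those of all genes. Median widths of Eif proximal peaks were 1461.5 bp after ERRα siRNA, 706 bp after HCFC1 siRNA and 1250 bp with control siRNA. For all genes they were 1186 bp, 633 bp and 956.5 bp in that order. The overlapping ERRα siRNA peak was wider than the control peak at 35 of 43 Eif genes (81.4%; all genes 76.1%), by a median ratio of 1.24 (all genes 1.29). The overlapping HCFC1 siRNA peak was wider at 1 of 39 (2.56%; all genes 13.6%), with a median ratio of 0.604 (all genes 0.6). That gene was Eif2ak4, at 731 bp after HCFC1 siRNA and 440 bp with control siRNA. Of the 39 HCFC1 siRNA peaks 30 lay wholly inside the control peak, and 8 of the 43 ERRα siRNA peaks spanned 2 control peaks. No share of all genes stands beside these last counts, so they are not read as particular to Eif genes. Depth per library is unknown, and its part in these widths was not tested.

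**Figure D3:**
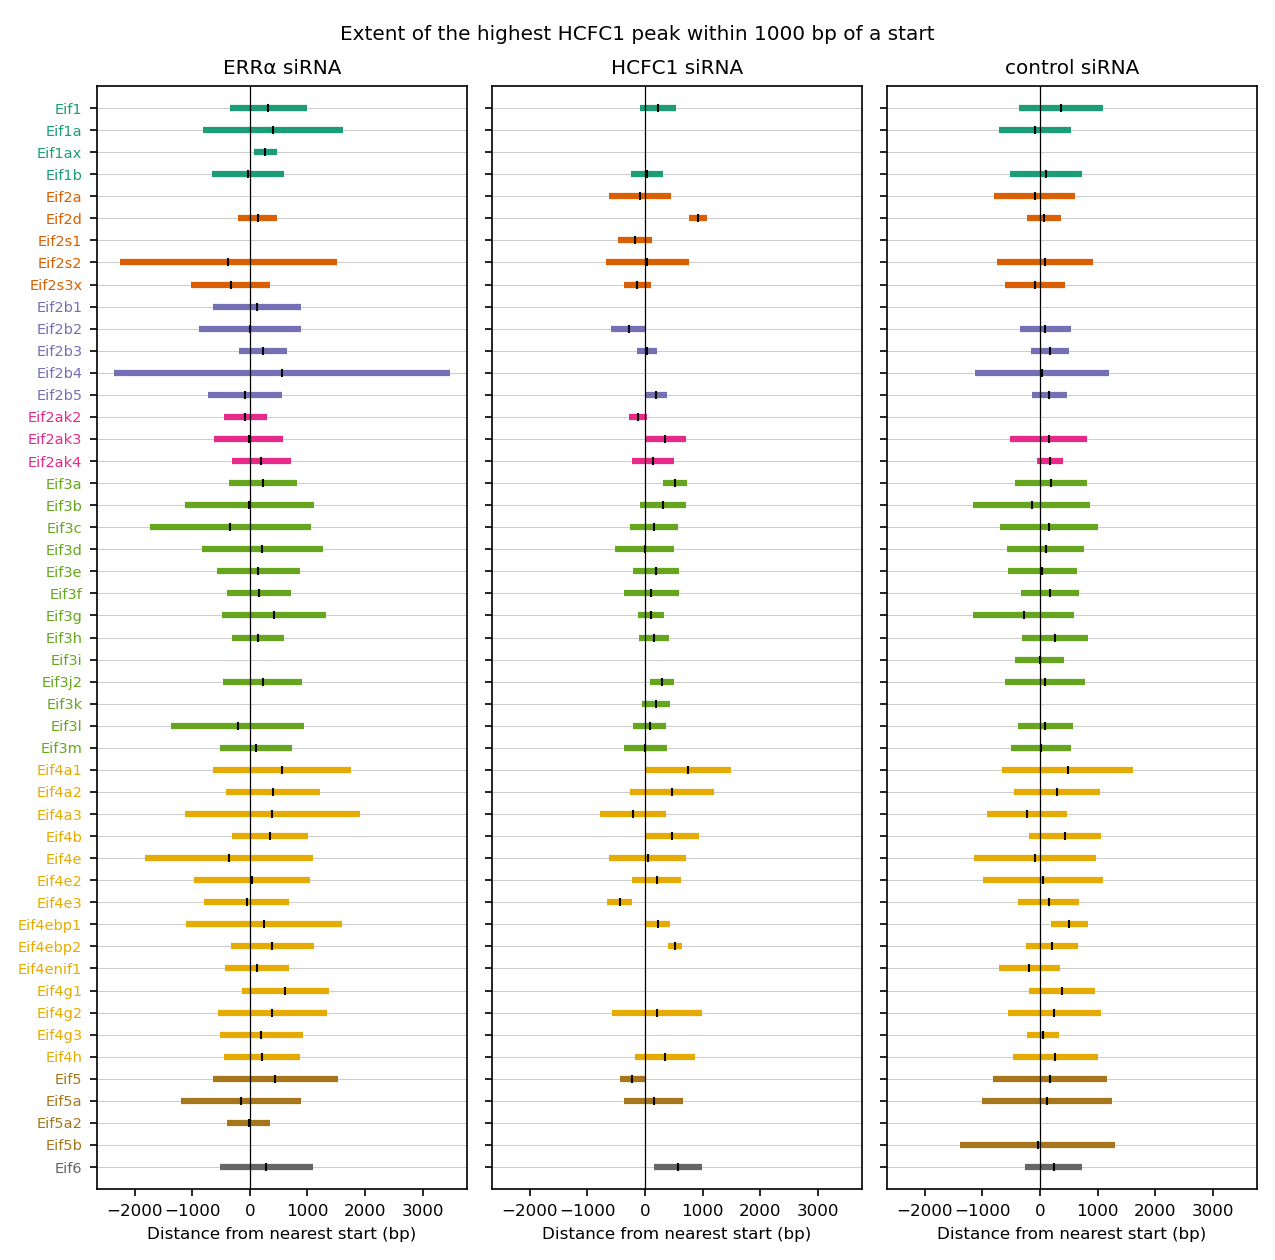
Extent of the highest HCFC1 peak within 1000 bp of a start for each Eif gene with one in at least 1 list, drawn along the gene from its nearest start (bp), for ERRα siRNA, HCFC1 siRNA and control siRNA; ticks mark peak centres. Bars after HCFC1 siRNA are the shortest, with a median of 706 bp, and gaps mark genes whose peak is missing or carries a neighbour's name.

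Several gaps by gene name were peaks named for a neighbour. Of 44 Eif genes with a RefSeq start, 9 had the start of a gene on the other strand within 1000 bp (20.5%, 9.8 to 35.3), against 9.61% of all protein-coding genes and 17.6% of those with a control peak at a start. In the pairs described here each peak carried the name of the start nearer to its centre. At Eif2b1, the alpha subunit of eIF2B, 17 bp from Gtf2h3, the peak was named Eif2b1 after ERRα siRNA (1415), and Gtf2h3 after HCFC1 siRNA (77) and with control siRNA (1071). The starts of Eif2s1 and Atp6v1d lay 434 bp apart. There the peak was named Atp6v1d after ERRα siRNA (554), Eif2s1 after HCFC1 siRNA (47) and Atp6v1d with control siRNA (262). At Eif3k, 162 bp from Map4k1, it was named Map4k1 after ERRα siRNA (202), Eif3k after HCFC1 siRNA (46) and Map4k1 with control siRNA (176). At Eif1ad, 63 bp from Banf1, all 3 peaks were named Banf1, with scores of 10293 after ERRα siRNA, 1469 after HCFC1 siRNA and 6045 with control siRNA. The name changed between lists at Eif2b1, Eif2s1 and Eif3k although a peak stood over the start in all 3 lists. The same held at Eif2b4 with Snx17, Eif2a with Serp1 and Eif5b with Txndc9.

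The bases between the annotated genes of 4 such pairs show how little separates them, printed 5′ to 3′ along the Eif gene with GCATGCGC, the NRF1 motif, or its reverse in capitals.
Eif2b1 and Gtf2h3 (chr5:124579132-124579147, minus strand): gcgcactcgatttccg
Eif2s1 and Atp6v1d (chr12:78862009-78862071, plus strand): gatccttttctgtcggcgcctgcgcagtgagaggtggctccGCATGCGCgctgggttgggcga
Eif2b4 and Snx17 (chr5:31193140-31193261, minus strand): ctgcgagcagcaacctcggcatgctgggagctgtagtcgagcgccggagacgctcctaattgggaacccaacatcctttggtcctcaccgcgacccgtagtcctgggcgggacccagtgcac
Eif3k and Map4k1 (chr7:28981891-28982049, minus strand): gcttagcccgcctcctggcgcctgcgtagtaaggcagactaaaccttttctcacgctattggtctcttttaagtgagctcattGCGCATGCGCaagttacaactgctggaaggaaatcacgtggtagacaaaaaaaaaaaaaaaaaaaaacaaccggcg
In Eif3k the motif and its reverse overlap in 1 palindromic run. These intervals measure 16, 63, 122 and 159 bases in the order printed, each shorter than the median HCFC1 siRNA peak of 706 bp. They lie between annotated genes, which can reach beyond the starts used for the distances above. The starts lay 434 bp apart at Eif2s1 and 165 bp apart at Eif2b4.

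**Figure D4:**
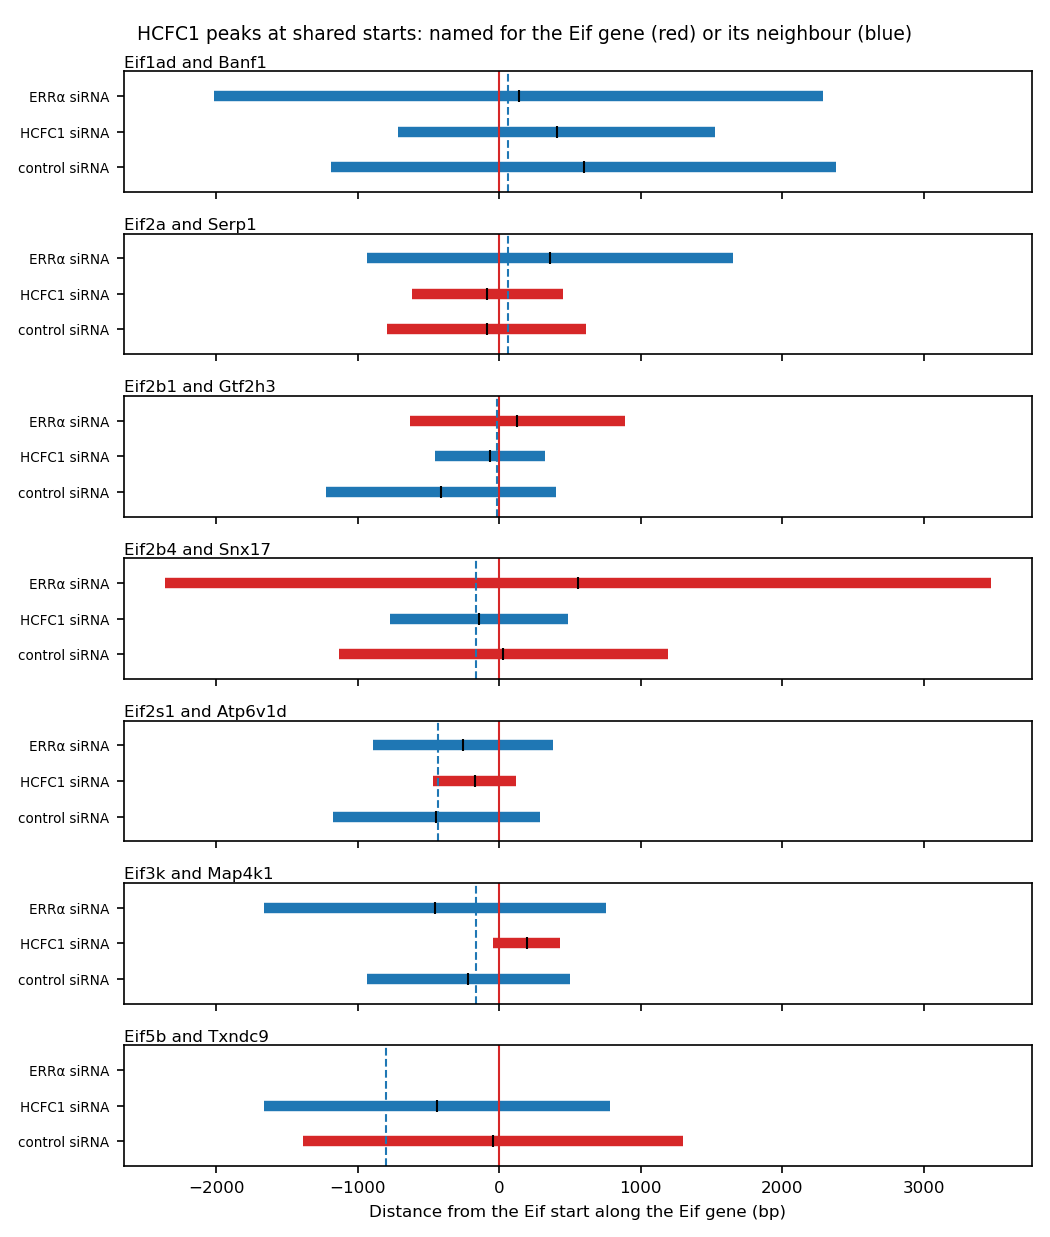
HCFC1 peaks at 7 Eif genes that share a start region with a neighbour, drawn along the Eif gene from its start (red line; dashed blue line, the neighbour's start; axis in bp), after ERRα siRNA, HCFC1 siRNA and control siRNA. Red bars are peaks named for the Eif gene and blue bars peaks named for the neighbour; peaks centred over 1000 bp from the Eif start are not drawn, which leaves Eif5b without a bar after ERRα siRNA.

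When peaks were assigned by position, so that any peak centred within 1000 bp of a RefSeq start counted whatever its name, more members were occupied. By position 40 of 44 Eif genes were occupied after ERRα siRNA (90.9%), 36 after HCFC1 siRNA (81.8%) and 39 with control siRNA (88.6%). By name the same 44 genes gave 35 after ERRα siRNA, 31 after HCFC1 siRNA and 33 with control siRNA, with Eif3j1 not counted through peaks named Eif3j2. Over 17492 protein-coding genes the shares by position were 50.6% after ERRα siRNA, 33.4% after HCFC1 siRNA and 50% with control siRNA. By position 34 of 44 were occupied in all 3 lists, and Eif2s3y and Eif4a3l1 in none. No share of all genes stands beside these counts, so they are not read as particular to Eif genes. Of the 39 occupied with control siRNA, 37 were also occupied after ERRα siRNA and 35 after HCFC1 siRNA, against 91.5% and 62.6% of all genes occupied with control siRNA. The exceptions after ERRα siRNA were Eif5b and Eif2ak1. At Eif5b the overlapping peak of score 3021 was centred over 1000 bp from the start. Eif2ak1, whose site could not have been listed after either knockdown under its control annotation, was also an exception after HCFC1 siRNA. The 8 occupied Eif genes with a shared start had a median control score of 835 and the other 31 a median of 271. Over all protein-coding genes these medians were 256 and 101, so shared starts stood higher there too.

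Away from the starts little was found. The control list held 36 peaks named for Eif genes between 1000 bp and 20 kb from a start, with a median score of 27.5 and none above 51. In the ERRα siRNA list 11 of these were overlapped (30.6%), against 26.6% of all such control peaks that scored no more than 51. In the HCFC1 siRNA list 0 of 36 were, with an exact upper bound of 9.74%, against 8.52% of all such peaks. A further 17 control peaks lay beyond 20 kb by the lists' own distances, where the knockdown lists hold none. Among them is the Eif2ak1 peak of score 302, which spans the RefSeq start of that gene. Between 1000 bp and 20 kb the ERRα siRNA list held 35 peaks named for Eif genes, none above 96. The HCFC1 siRNA list held 8 there, none above 45. Eif3h had the most peaks away from its start, 12 in the control list.

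Other genes of the pathway were taken from lists of elongation, termination and recycling factors and of initiation partners and regulators. Their counts stand beside the shares of all genes given above, which were 45.1% occupied after ERRα siRNA, 29.3% after HCFC1 siRNA and 44.2% with control siRNA, and 90.6% and 58.7% overlapped. The median control score was 127.5 for the partners and regulators and 185 for the elongation, termination and recycling factors, against 102 for all genes. Of 22 partners and regulators, 21 had a proximal peak after ERRα siRNA, 18 after HCFC1 siRNA and 22 with control siRNA. Of these 22 control peaks, 22 were overlapped after ERRα siRNA and 19 after HCFC1 siRNA. Their highest control scores were at Pabpc1 (8399), the poly(A)-binding protein, Rptor (2505), a subunit of the mTORC1 kinase, Rps6kb2 (1718), a ribosomal protein S6 kinase, and Atf4 (834), the transcription factor translated when eIF2 is phosphorylated. Mtor (83), Mknk1 (37) and Mcts1 (28) had no overlapping peak after HCFC1 siRNA. Of 14 elongation, termination and recycling factors, 10 had a proximal peak after ERRα siRNA, 9 after HCFC1 siRNA and 12 with control siRNA. Of these 12 control peaks, 11 were overlapped after ERRα siRNA and 9 after HCFC1 siRNA. Their highest control scores were at Gspt1 (6312), the release factor eRF3a, Eef1b2 (1762), an exchange factor of elongation, Abce1 (506), the recycling factor, and Hbs1l (393), a rescue factor. Eef2k (62), Pelo (61) and Eef1a2 (23) had no overlapping peak after HCFC1 siRNA, and Eef1a2 had none after ERRα siRNA.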

How the data were processed

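HCFC1 ChIP-seq peaks of 3 of the 6 libraries were analysed; the IgG libraries were not. The starting point was the peak list the authors deposited for each HCFC1 library, which gives each peak's position, gene, start distance, annotation and score. Scores in the deposited lists are whole numbers of at least 13 whose scale is not stated. Tools named in the submitters' processing notes, without roles, are HOMER 4.11.1, MACS2 2.1.1.20160309, BWA 0.7.12 and Picard 2.0.1, and the build is mm10. The control list reaches -1710904 and 1580013 bp from a start and holds 10630 peaks beyond 20 kb. Both knockdown lists hold 0 there, so list lengths were not compared. Within 20 kb the lists held 21881 peaks (ERRα siRNA), 12610 (HCFC1 siRNA) and 25507 (control siRNA). Depth is not given, and the precision it allows is unknown.

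Per gene, the highest-scoring peak within 1000 bp of a start was taken, and an overlap of at least 1 bp counted. Position assignment and promoters used RefSeq tables (GRCm38.p6). The text gives full values for the 10 highest control scores, members not overlapped or seen only after a knockdown, and at least 1 gene per factor group. In the pathway lists it names up to 4 of the highest control scores and up to 4 not overlapped. Python 3.11.15, pandas 2.3.3 and SciPy 1.17.1 were used, and the overlap code was tested on simulated data. The members and lists were chosen with earlier results of these data known, and the position rule was added after seeing the data. Alternatives were other distances, annotations, score minima and overlap rules, and lists of equal length.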

Additional observations from a re-analysis of the deposited data

How the results depend on the processing

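Of 61 recomputed values, 51 moved by less than their counting interval and 10 by more. With the authors' promoter annotation in place of 1000 bp, the share of Eif genes occupied was 35.7% after ERRα siRNA, 33.9% after HCFC1 siRNA and 48.2% with control siRNA; many of these peaks are annotated to an exon, an intron or a UTR. By position at a RefSeq start, an alternative added after seeing the data, it was 90.9%, 81.8% and 88.6% in the same order. With a reciprocal overlap of at least 50%, 81.4% of control peaks were overlapped after ERRα siRNA and 53.5% after HCFC1 siRNA. With centres within 200 bp, the shares were 62.8% and 58.1%. These rules are stricter by construction, and any further cause was not tested. Distances of 500, 2000 or 5000 bp, scores of at least 30 and lists of equal length left the occupancy shares, overlaps and ranks within their intervals. A control score of at least 100, tried for the overlaps alone, left these within theirs.

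No paired analysis was possible because each condition was 1 library and no test was made. For the same reason no replicate was left out. Unknown depth limits every absence of a peak, and a peak missing from a list is not shown to be lost. Some absences by name are peaks named for a neighbour, and the knockdown lists hold no peak beyond 20 kb of a start.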
